A study of Equus caballus with 2 samples.

Results

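CpG-dense clusters spanning several kilobases were described in the DNA methylation profile of a horse skin tumour and of skin from the same animal. A 1 kb tile of the genome was called dense where more than 20 CpGs were listed in either library, and dense tiles were taken as members where a fixed 10 kb bin held 3 or more of them. By this rule 1023 tiles in 295 bins were members, out of 10183 dense tiles and of 182056 tiles with any listed CpG. The rule used the positions of listed CpGs and no methylation level. A methylation level needed at least 3 CpGs with 10 or more reads in both libraries, and it could be given for 1015 member tiles. The other 8, on chromosomes 1, 7, 10, 11 and 12, had none.

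The study held 1 library of sarcoid tissue and 1 of skin distant from the tumour, both from horse 1 (Equus caballus). Sarcoid is a locally invasive tumour of equine skin made up largely of fibroblasts. Age, breed and sex were not stated in the sources used here, no treatment was stated beyond freezing of the collected material, and neither group had replicates. DNA came from whole tissue, so that a different mix of cell types and a different level within a cell type cannot be told apart. Every difference below is the sarcoid library minus the skin library, in percentage points, and every test compares these 2 libraries and not the tissues in general.

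In mammals, DNA methylation is placed mainly on the cytosine of CpG dinucleotides, and most CpGs of the genome carry it. CpG-rich stretches (CpG islands) are the main exception: many cover gene promoters and stay unmethylated in most healthy tissues, whereas others, within genes, between genes or in repeated DNA, are methylated. Reduced representation bisulfite sequencing (RRBS) reads short fragments between MspI cutting sites, so it samples CpG-rich DNA preferentially, and a listed CpG is one that such a fragment reached. The genome build is not given in the sources used here. No genes, annotations or sequences were therefore assigned to the clusters, and positions are those of the deposited files.

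Of the 295 bins, 211 held 3 dense tiles, 55 held 4, 13 held 5, 11 held 6, 2 held 7, 2 held 8 and 1 held 9. A bin listed between 67 and 344 CpGs in its dense tiles, with a median of 99, and a member tile listed between 21 and 126, with a median of 29. From the first to the last dense tile a cluster spanned a median of 6 kb, and in 67 bins the dense tiles touched each other. Neighbouring bins seldom followed each other. They formed 262 runs, of which 236 were single bins, 20 were pairs and 6 were longer, and the longest covered 4 bins at chr13:6390001-6430000. Just inside the threshold, the 61 tiles of these bins with 21 listed CpGs and a level had medians of 35.7% in skin and 33.7% in sarcoid, and just outside it the 27 tiles with 20 listed CpGs had medians of 57.2% and 51.8%.

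The clusters were not spread over the chromosomes as dense tiles are. Chromosome 7 held 77 of the 295 bins (26.1%) and 26.9% of the member tiles, compared with 9.53% of all dense tiles and 6.51% of listed CpGs, and 62 of its 77 bins lay within the first 5 Mb. Chromosome 13 held 27 bins and 10.2% of the member tiles, compared with 5.85% of dense tiles, and 19 of those bins lay within the first 7 Mb. Chromosome 19 held none. Over all chromosomes, 88 bins (29.8%) lay in the first 5 Mb, where 13.6% of dense tiles lay, but only 26 of those 88 were on a chromosome other than 7. The last listed 5 Mb held 39 bins (13.2%), against 13.6% of dense tiles.

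**Figure D1:**
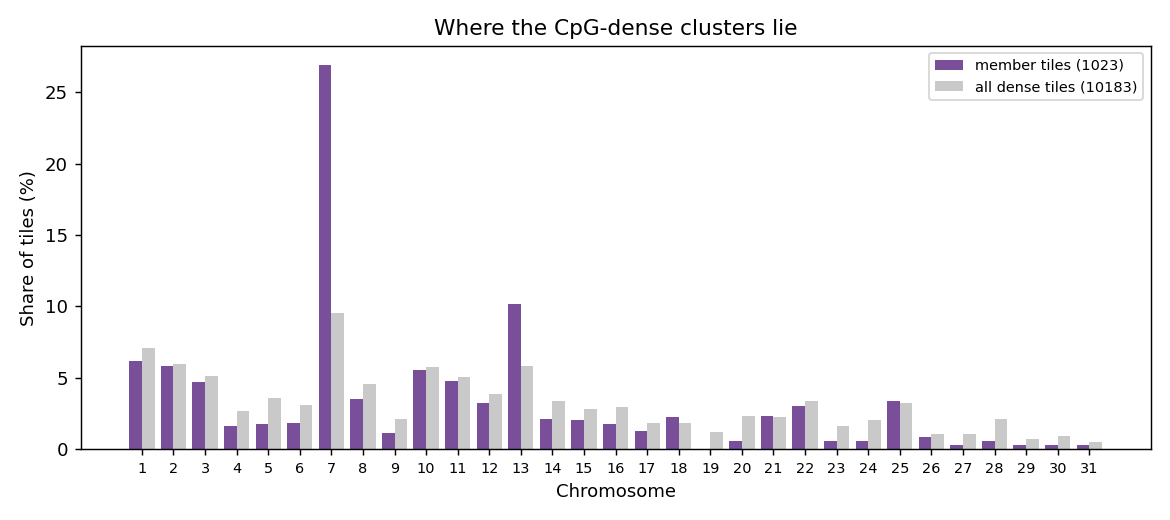
Share of tiles (%) on each of chromosomes 1 to 31 for the 1023 member tiles (purple) and for all 10183 dense tiles (grey). The purple bar stands well above the grey one on chromosome 7 (26.9% against 9.53%) and on chromosome 13 (10.2% against 5.85%).

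Methylation of the clusters was split. Of 1015 member tiles, 462 (45.5%) were at or below 20% in skin, 354 (34.9%) lay in between, and 199 (19.6%) were at or above 80%. In sarcoid the same classes held 469, 402 and 144 tiles. The median level was 31.0% in skin, with an interquartile range of 2.05% to 75.1%, and 29.2% in sarcoid, with a range of 2.04% to 70.3%. The 9105 other dense tiles, which stand alone or in pairs in their bin, were mostly unmethylated, with 67.4% of them at or below 20% in skin and medians of 1.80% in skin and 1.86% in sarcoid. Over all 103489 tiles with a level the medians were 62.9% and 60.6%. Low methylation in both libraries was found in 444 member tiles (43.7%), in 66.3% of other dense tiles and in 21.6% of all tiles. High methylation in both was found in 134 member tiles (13.2%).

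The depth behind these levels was similar for both kinds of dense tile. Median reads per tested CpG were 51.5 in skin and 37.2 in sarcoid for member tiles, 54.8 and 37.4 for other dense tiles, and 41.0 and 30.7 for all tiles. At CpGs read on both strands, the strands of member tiles stood 30 points or more apart at 7.32% of 8878 CpGs in skin, compared with 3.72% in other dense tiles and 13.2% in all tiles.

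The more dense tiles a bin held, the more of them were methylated. In skin, the share of dense tiles at or below 20% was 67.7% in bins with 1 dense tile, 66.5% with 2, 52.6% with 3, 44.95% with 4 and 19.3% with 5 or more. The share at or above 80% was 11.8%, 12.3%, 16.8%, 17.9% and 32.5% in the same order. Median levels in skin were 1.59%, 2.52%, 14.4%, 29.1% and 73.2%, and in sarcoid 1.66%, 2.65%, 12.9%, 27.95% and 69.4%, so the order was the same in both libraries. Part of this order came from chromosome 7. Without it the medians in skin were 1.42%, 1.90%, 6.72%, 5.50% and 73.9%. Bins with 3 and with 4 dense tiles then no longer followed the order. The 20 remaining bins with 5 or more, on 8 chromosomes, still had the highest median. Most of these bins lay on chromosomes 1, 2 and 13, with means between 47.1% and 88.4% in skin. The bins on chromosomes 8, 11, 18 and 25 averaged 31.3%, 3.36%, 4.54% and 1.72%. Those on chromosome 15 averaged 76.2% and 0.473%. The highest median thus came from bins on a few chromosomes.

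**Figure D2:**
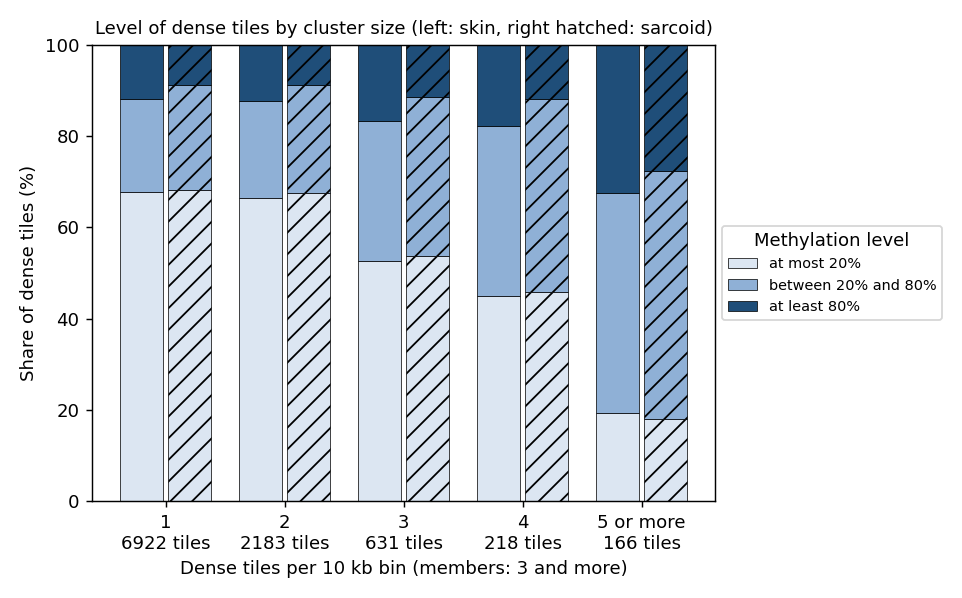
Share of dense tiles (%) at low (20% or less), middle and high (80% or more) methylation in skin and sarcoid, by the number of dense tiles in the 10 kb bin. In both libraries the low class shrinks towards bins with 5 or more dense tiles, from 67.7% to 19.3% in skin.

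The bins with most dense tiles were methylated in both libraries. The bin at chr2:48850001-48860000 held 9 dense tiles with 305 listed CpGs and had a mean over tiles of 82.1% in skin and 81.0% in sarcoid. The 8 dense tiles at chr7:52710001-52720000 averaged 60.8% in each library. The 8 at chr7:20001-30000 averaged 66.9% in skin and 65.02% in sarcoid, but they ranged from 13.6% to 95.2% in skin. At chr1:67000001-67010000, 7 dense tiles averaged 78.3% and 77.0%, and at chr15:1-10000, the first bin of that chromosome, 7 averaged 76.2% and 74.4%. No dense tile of these 5 bins was called different between the libraries, while a less dense tile at chr7:29001-30000 was called lower in sarcoid (49.5% and 23.4%). Large clusters of low methylation also occurred. Chosen after their values were seen, the 6 dense tiles at chr25:33370001-33380000 averaged 1.72% in skin and 1.74% in sarcoid, and the 5 at chr15:14230001-14240000 averaged 0.473% and 0.604%.

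Dense tiles of a bin often shared a state. In skin, 99 bins had every tile at or below 20%, 113 had none there, and 83 held tiles of both kinds. The level differed among tiles of a bin by a median of 17.1 points in skin and 19.2 in sarcoid, and by less than 20 points in 157 and 155 bins. In 17 bins every tile was at or above 80% in skin, and in sarcoid this held for 8. The highest bins in skin were chr13:6610001-6620000 at 90.6%, chr9:82420001-82430000 at 90.4% and chr5:98490001-98500000 at 90.3%, and they stood at 87.8%, 87.1% and 82.6% in sarcoid. At the other extreme, 24 bins held a tile at or below 20% beside one at or above 80% in skin, and 20 did in sarcoid. The most unequal bin in skin, chr7:750001-760000, held dense tiles between 0.128% and 92.9% in skin and between 0.0845% and 91.1% in sarcoid. At chr10:28160001-28170000 the tiles lay between 2.05% and 94.8% in skin and between 3.43% and 93.8% in sarcoid, and at chr11:19980001-19990000 between 1.87% and 92.1% and between 3.78% and 87.2%. A low and a high tile thus stood within the same 10 kb in both libraries at these 3 bins.

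Surroundings differed with the state of the cluster. Around the 99 clusters that were low throughout in skin, the mean level climbed from 2.97% in the dense tiles to 11.5% at 1 kb outside the outermost dense tile, 26.8% at 5 kb, 34.6% at 10 kb and 49.1% at 20 kb. In sarcoid the same steps were 3.63%, 12.9%, 26.8%, 32.5% and 48.9%. Medians in skin were below the means up to 10 kb, with 4.07% at 1 kb, 6.46% at 5 kb and 18.9% at 10 kb. At 20 kb the median was 49.5%. These 4 steps rested on 74, 38, 29 and 23 tiles. The climb of the mean in skin was uneven, with 37.8% at 9 kb and 29.7% at 11 kb. Around the 113 clusters with no low tile the level was 69.6% in the dense tiles of skin, 65.6% at 1 kb and 62.9% at 20 kb, and in sarcoid 66.2%, 63.1% and 57.8%. Mixed clusters lay in between, with 31.8% in dense tiles, 38.9% at 1 kb and 51.2% at 20 kb in skin. The 351 less dense tiles that lay between dense ones had means of 49.0% in skin and 46.2% in sarcoid, above the 38.0% and 36.3% of the dense tiles themselves.

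**Figure D3:**
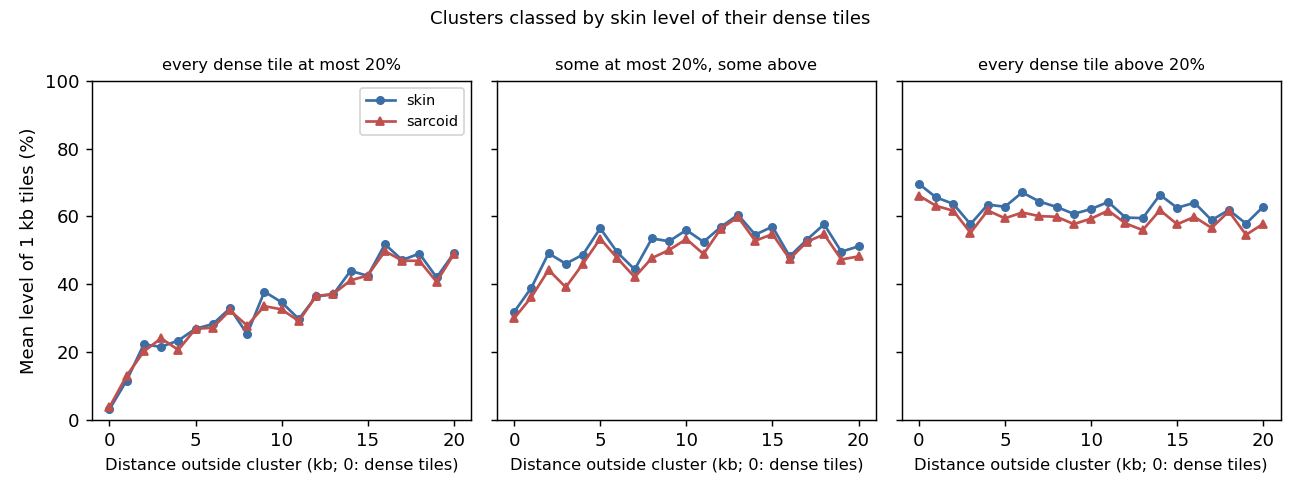
Mean methylation level (%) of dense tiles and of tiles at increasing distance (kb) outside a cluster, in skin and sarcoid, for clusters whose dense tiles were all, partly or not at or below 20% in skin. Low clusters rise from 2.97% to 49.1% at 20 kb in skin, while clusters with no low tile start at 69.6% and stay above 50%.

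Between the libraries most of the cluster DNA stood close. The median difference over member tiles was -0.42 points (mean -1.71), compared with -0.10 (mean -1.17) in other dense tiles and -0.41 (mean -1.88) in all tiles. Of the 1015 tiles, 670 (66.0%) differed by less than 5 points, compared with 77.9% of other dense tiles and 52.2% of all tiles. Member tiles and other dense tiles held a median of 22 tested CpGs, and all tiles 6, so levels over all tiles carry more counting error. Low levels in both libraries were also more frequent in members (43.7%) than in all tiles (21.6%). The part of either in these shares was not tested. A lower level in sarcoid was seen in 611 tiles (60.2%) and a higher one in 395, and over all tiles 56.3% were lower. The 5th and 95th percentiles of the difference were -18.4 and 12.9 points.

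Methylated and unmethylated reads were summed per tile and compared with Fisher's exact test (two-sided), and tiles with q below 0.01 (Benjamini-Hochberg over all 103489 tiles) and 25 points or more were called different. Of 1015 member tiles, 40 (3.94%) were called, against a background of 6.39% over all tiles and 2.34% over other dense tiles. Lower levels in sarcoid were called in 27 member tiles (2.66%), beside a background of 4.11% over all tiles and 1.53% over other dense tiles. Higher levels were called in 13 (1.28%), beside 2.28% and 0.813%. The difference between these shares was not tested, and all tiles held fewer tested CpGs than members (medians of 6 and 22). Counting single CpGs, 651 of 24160 (2.69%) were called, beside 2.84% of all 875729 CpGs and 1.53% of those in other dense tiles. Of these, 425 were lower (1.76%, beside 1.89% and 0.932%) and 226 higher (0.935%, beside 0.954% and 0.601%). A read over several CpGs counts more than once in a tile and copies made by PCR are not independent molecules, so q values are too small and intervals cover counting error only. When the reads of a tile were divided by the CpGs that a read covers, 25 member tiles were called lower and 10 higher, which was 3.45% of member tiles beside 3.29% of all tiles, so the share of members was then no longer below that of all tiles.

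**Figure D4:**
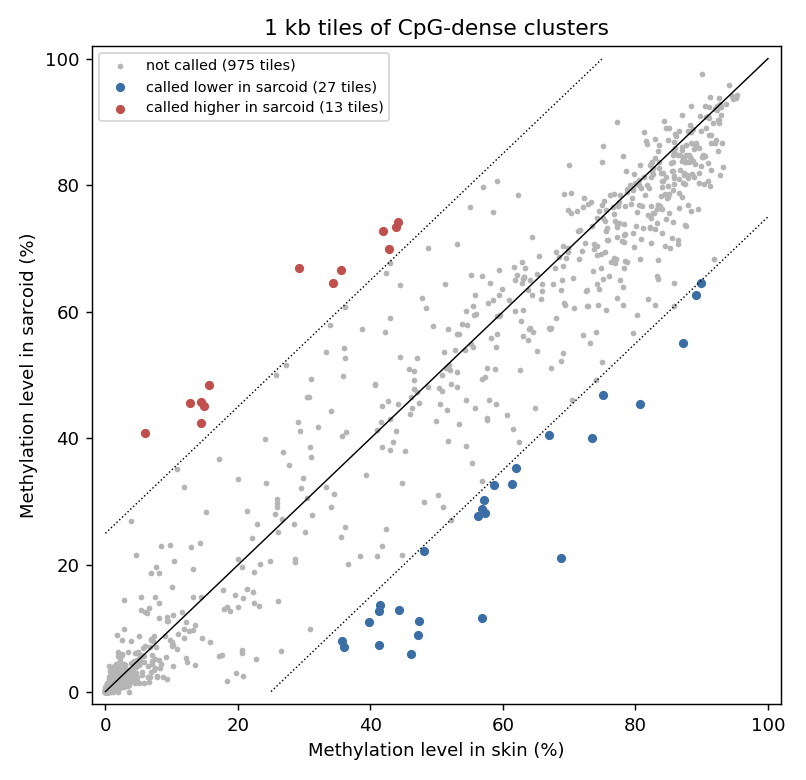
Methylation level (%) of each of the 1015 member tiles in skin (x axis) and sarcoid (y axis), with the tiles called lower (27) and higher (13) in sarcoid coloured. Most points lie along the diagonal, and 670 of them are within 5 points of it.

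Most calls came from tiles of middle methylation. Among the 354 member tiles between 20% and 80% in skin, 23 (6.5%) were called lower and 7 (1.98%) higher, beside 6.19% and 3.72% of all tiles in that range and 6.33% and 2.66% of other dense tiles. Among the 462 tiles at or below 20% in skin, 6 (1.3%) were called higher, compared with 24 of 6139 other dense tiles (0.391%) and 1.27% of all tiles. Among the 199 tiles at or above 80%, 4 (2.01%) were called lower, beside 3.39% of all tiles and 1.84% of other dense tiles in that range. The 27 tiles called lower had a median of 56.8% in skin (35.7% to 89.8%) and of 27.8% in sarcoid (5.86% to 64.6%), and 11 of them stood at or below 20% in sarcoid. The 13 called higher had a median of 29.2% in skin (6.01% to 44.2%) and of 64.6% in sarcoid (40.8% to 74.2%), and none of these 13 by this Fisher test reached 80%.

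Each called tile was also read CpG by CpG, as a description only, since the call used the sum of these reads and neighbouring CpGs share reads. In the 27 tiles called lower, 551 of 587 tested CpGs were lower in sarcoid, 34 were higher and 2 were equal, and both strands were lower in 27 of 27 tiles. In the 13 tiles called higher, 265 of 280 CpGs were higher, 14 were lower and 1 was equal, and both strands were higher in the 12 tiles with reads on both. Differences ran from 25.3 to 47.7 points among the tiles called lower and from 27.2 to 37.8 among those called higher. Sarcoid reads relative to skin reads, as a log2 ratio, ran from -1.18 to 0.86 in tiles called lower, with a median of -0.39, and from -1.49 to -0.05 in those called higher, with a median of -0.97. Over all member tiles its median was -0.53. The part of depth in these calls was not tested further than by scaling each CpG to its smaller coverage, which left 22 tiles called lower and 14 called higher.

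Among tiles with 10 or more tested CpGs, the largest fall was at chr8:24191001-24192000, from 68.8% of 1152 reads in skin (95% Wilson interval 66.1 to 71.4) to 21.1% of 862 in sarcoid (18.5 to 24.0), q = 1.38e-100. All 26 tested CpGs were lower and 16 of them passed on their own. The other dense tiles of that bin did not follow, with 59.0% and 54.5%, 29.1% and 42.6%, and 55.2% and 54.9% in skin and sarcoid. Among the less dense tiles of the bin, chr8:24197001-24198000 was called lower (48.4% and 22.8%), and so was chr8:24199001-24200000 (61.04% and 27.0%). At chr10:17682001-17683000 the level went from 56.8% of 285 reads (51.0 to 62.5) to 11.6% of 510 (9.08 to 14.6), q = 4.25e-39, but its 10 CpGs lie between 17682760 and 17682822, a stretch that a single read can cover. The next tiles of that bin, which are less dense, were called lower too, chr10:17683001-17684000 (76.6% and 49.6%) and chr10:17684001-17685000 (81.03% and 52.03%).

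At chr4:58191001-58192000 the level went from 46.2% of 1574 reads (43.7 to 48.7) to 5.86% of 1330 (4.72 to 7.26), q = 2.45e-141, with 25 of 26 CpGs lower and 1 equal. A dense tile 3 kb further on, chr4:58194001-58195000, was lower by less than 25 points, 18.4% in skin and 1.73% in sarcoid (q = 4.08e-59). The next ones were low in both libraries, at 3.60% and 0.994%, then 3.69% and 2.11%. The less dense tile at chr4:58189001-58190000 went the other way, 31.3% in skin and 53.6% in sarcoid. At chr7:2606001-2607000 the level went from 47.1% of 679 reads (43.4 to 50.9) to 8.91% of 449 (6.61 to 11.9), q = 2.8e-43, and all 17 CpGs were lower.

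A whole cluster was lower at chr11:36860001-36870000, where the 3 dense tiles touch and each was called. They went from 47.4% of 973 reads (44.3 to 50.5) to 11.1% of 920 (9.22 to 13.3), q = 2.02e-67, from 35.7% to 8.06%, q = 1.36e-11, and from 41.3% to 12.7%, q = 2e-21. The middle tile rested on 5 tested CpGs of 21 listed, with 319 reads in skin and 186 in sarcoid. In the last tile all 22 CpGs were lower but 0 passed on their own. The bin mean went from 41.5% to 10.6%, which was the most negative bin difference of all 295, at -30.9 points. This was also the only bin that had no dense tile at or below 20% in skin and nothing but such tiles in sarcoid. The tile just before the cluster, chr11:36858001-36859000, stood at 17.3% in skin and 13.3% in sarcoid and was not called.

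The other bin with more than 1 tile called lower was chr7:2660001-2670000. Of its 4 dense tiles, 2 were called, from 67.0% to 40.6% (q = 3.49e-16) and from 56.2% to 27.8% (q = 9.59e-44). The others were lower by less than 25 points, from 87.5% to 73.7% and from 22.4% to 14.03%. The less dense tile at chr7:2661001-2662000 was called too, from 60.2% to 31.8%. The bin mean was 58.3% in skin and 39.0% in sarcoid.

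The largest rise was at chr13:6440001-6441000, from 29.2% of 987 reads in skin (26.4 to 32.1) to 67.0% of 439 in sarcoid (62.4 to 71.2), q = 2.51e-38, and all 17 CpGs were higher. The 3 dense tiles that follow were low in both libraries, at 8.02% and 14.1%, 3.47% and 1.24%, and 5.34% and 5.74%. Less dense tiles nearby went both ways: chr13:6439001-6440000, just before the rise, was called lower (68.2% and 37.8%), and chr13:6448001-6449000 was called higher (47.9% and 77.2%). The rise with the lowest start was at chr16:26695001-26696000, from 6.01% of 1480 reads (4.91 to 7.34) to 40.8% of 1269 (38.1 to 43.5), q = 2.01e-109, with 32 of 33 CpGs higher. The dense tile before it stood at 4.63% and 21.6% and was not called, the less dense tile after it was called higher (11.6% and 44.4%), and a dense tile in the neighbouring bin, chr16:26689001-26690000, went from 12.02% to 44.1% and was called too.

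At chr2:115280001-115290000 the higher level in sarcoid spanned several tiles. The first 2 of its 3 dense tiles were called, from 12.7% of 1130 reads (10.9 to 14.8) to 45.5% of 424 (40.8 to 50.3), q = 4.61e-38, and from 14.4% to 42.4%, q = 8.6e-43. The remaining one went from 1.87% to 5.54%. The 3 less dense tiles after it were called as well, from 15.3% to 44.8%, from 16.8% to 47.1% and from 19.3% to 45.5%, and so was chr2:115294001-115295000, from 27.9% to 58.5%. The bin mean went from 9.66% to 31.2%, the most positive of all bins at 21.5 points. At chr3:17633001-17634000 the level went from 15.7% of 587 reads (12.96 to 18.8) to 48.4% of 281 (42.6 to 54.2), q = 1.37e-21, with all 17 CpGs higher although 0 passed the Fisher test alone. At chr23:23058001-23059000 it went from 14.5% of 1595 reads (12.8 to 16.3) to 45.7% of 1544 (43.3 to 48.2), q = 1.18e-80, and all 30 CpGs were higher.

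**Figure D5:**
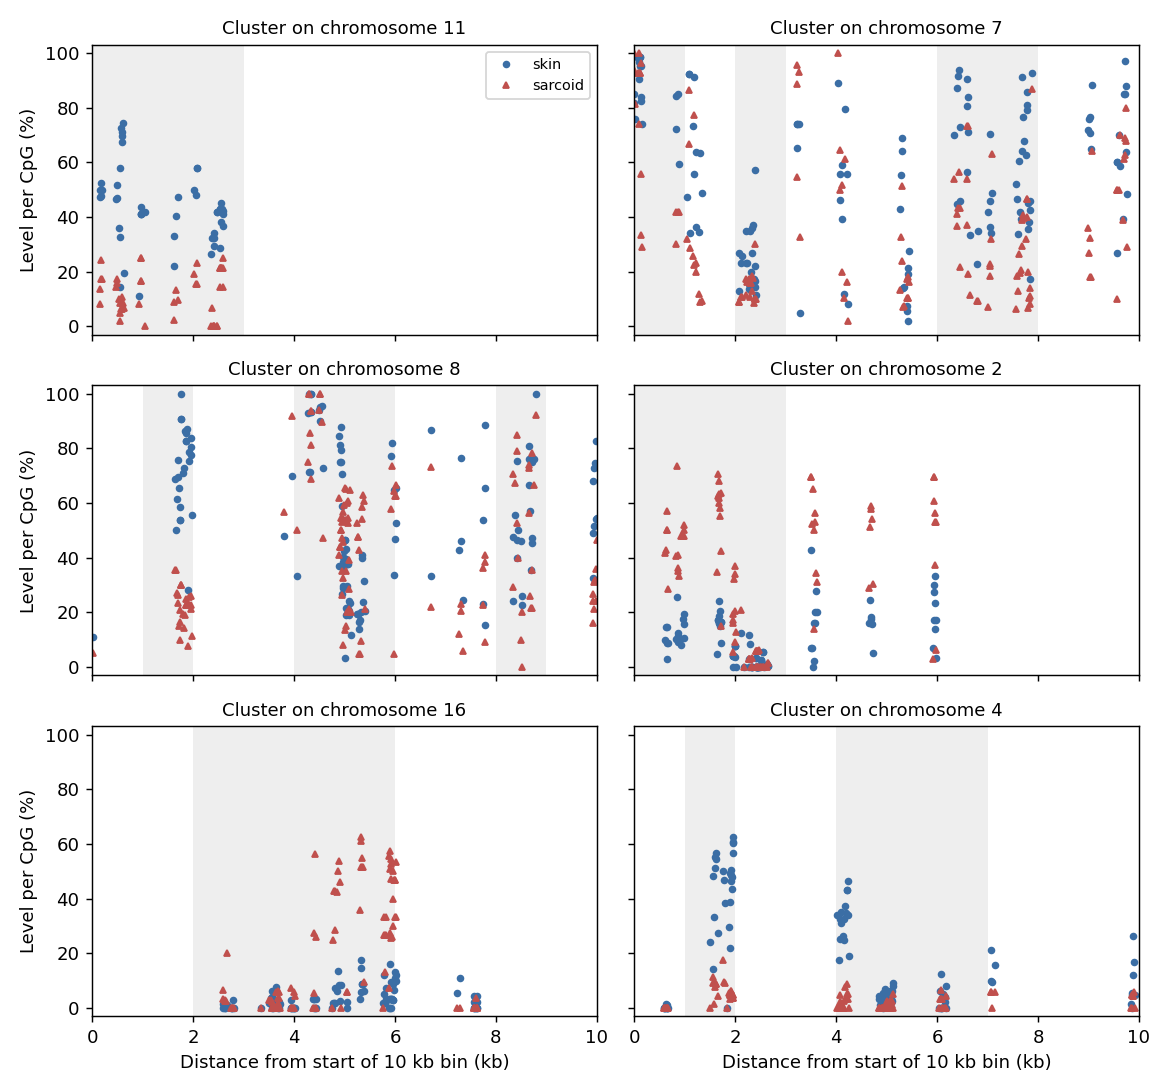
Methylation level (%) of single CpGs in skin (circles) and sarcoid (triangles) against distance (kb) from the start of the 10 kb bin, for 6 clusters on chromosomes 11, 7, 8, 2, 16 and 4, with dense tiles shaded grey. The libraries part over the whole chromosome 11 cluster (41.5% and 10.6%) and over most of the chromosome 2 one, while on chromosomes 8 and 4 they part mainly over 1 dense tile.

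Called dense tiles were mostly single within their cluster. A called tile was found in 36 bins, 24 with a lower and 12 with a higher tile and 0 with both, and 33 of the 36 held only 1. Over all member tiles 3.94% were called. In the bins with a tile called lower, 37 of 53 uncalled tiles were lower, with a median difference of -1.52 points. Over all 1015 member tiles 611 (60.2%) were lower. In the bins with a tile called higher, 20 of 33 uncalled tiles were higher, with a median of 0.41, beside 395 of all 1015 member tiles. Averaged over tiles, 191 bins were lower in sarcoid and 104 higher, 189 differed by less than 5 points, and 18 were lower and 10 higher by 10 points or more. The class of a bin was the same in both libraries in 265 of 295. Among the others, 13 went from both kinds of tile in skin to all low in sarcoid, 8 from all low to both kinds, 5 from none low to both kinds and 3 from both kinds to none low.

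Chromosome 7 held the most clusters. Its 272 member tiles with a level had medians of 66.4% in skin and 61.9% in sarcoid, with a median difference of -2.59 points, 195 (71.7%) lower, 12 called lower and 1 higher. The share called was 4.78%, below the 7.24% of all tiles on chromosome 7. The 221 tiles of its first 5 Mb had medians of 71.3% and 64.6%, with 10 called lower and 1 higher. The 743 member tiles on the remaining chromosomes had medians of 10.1% and 9.70%, a median difference of -0.16, 15 called lower and 12 higher (3.63%, beside 6.33% of all tiles without chromosome 7). Relative to skin, 10 chromosomes (5, 6, 7, 12, 18, 21, 22, 25, 28 and 29) had more sarcoid reads than the others, and they held 463 of the 1015 member tiles, 13 of the 27 called lower and 1 of the 13 called higher. The share of member tiles called was 3.02% on them and 4.71% on the other chromosomes. Over all tiles the order was the reverse. The share was 5.78% on the other chromosomes, and on each of the 10 it lay between 5.90% (chromosome 5) and 9.01% (chromosome 29). The part of read depth in the lower levels on chromosome 7 was not tested. Other chromosomes with fewer clusters also had methylated members: the 32 member tiles with a level on chromosome 12 had medians of 60.5% in skin and 58.3% in sarcoid, a median difference of -3.21 points and 24 tiles lower, with 0 called by the Fisher test. On chromosome 13, the 104 member tiles had medians of 57.4% in skin and 62.6% in sarcoid. Their median difference was only 0.303 points, and 47 were lower. The mean difference was 1.20 points, where all tiles of chromosome 13 averaged -2.04. Of these members 1 was called lower and 4 higher (4.81%), beside 6.04% of all tiles on chromosome 13.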

How the data were processed

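DNA methylation was measured by RRBS in 1 sarcoid and 1 skin library. Per the labels' protocols, both followed Illumina's RRBS guide and were read as 75 bp single ends. FastQC, BSMAP and methylKit are named per the submitters' processing notes, and their versions and settings are not given in the sources used here. The deposited file of each library gives a read count (coverage) per cytosine and the percent of reads with C and with T, per the file headers. The authors' deposited table of p-values, q-values and differences covers chromosome 1. Coverage summed to 48650606 reads over 1203704 CpGs in skin and 35970547 over 1147734 in sarcoid, with medians of 41 and 31 reads at tested CpGs.

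Methylated reads (coverage times percent C, rounded) were summed over strands. Tested CpGs had 10 or more reads in both libraries, and the 0.1% of shared CpGs with most coverage were left out. Tiles and CpGs were compared with Python 3.11.15, numpy 2.4.6, pandas 2.3.3 and numba 0.67.0, by code tested on simulated data. Its Fisher test was checked against that of scipy 1.17.1. Named were the 5 largest falls and 5 largest rises among called tiles with 10 or more tested CpGs, the 5 bins with most dense tiles, bins with 2 or more tiles called in 1 direction, and the 3 highest and 3 most unequal bins in skin. Members and lists were chosen with earlier results of these data known. The reference table given was of another assembly and was not used here.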

Additional observations from a re-analysis of the deposited data

How the results depend on the processing

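With 1 library per tissue no result has a replicate check, and reads from MspI fragments limit each cluster to the CpGs they reached. No paired analysis was possible because horse 1 gave a single pair of libraries. The 10 named tiles kept their direction and their call in each of the 55 values that the alternatives gave for them. These values all used the same cut on the difference as the main calls. The tiles had been chosen as the largest falls and rises, so kept calls were likely from the start. Without the coverage limit their differences were unchanged. Dividing reads by CpGs per read alters the test only, so the differences and directions of the 10 tiles were fixed in advance under that setting. At 40 points every named rise loses its call, as the largest was 37.8 points. So do the falls at chr7:2606001 (-38.2) and chr11:36860001 (-36.3). No value was had for chr3:17633001 with 20 reads, nor for that tile and those at chr10:17682001, chr7:2606001 and chr2:115280001 with 10 reads on each strand. The 27 falls and 13 rises became 14 and 12 (26 in all, 4.71% of 552 member tiles) without the 10 chromosomes of deeper sarcoid coverage, 1 and 6 (7 in all, 4.14% of 169) where dense meant over 30 listed CpGs, 11 and 7 (18 in all, 2.71% of 665) where CpGs listed in both libraries defined dense tiles, 8 and 7 (15 in all, 3.91% of 384) where a bin needed 4 or more dense tiles, and 3 and 0 (3 in all, 0.296% of 1015) by the same Fisher test at 40 points. Leaving out chromosome 7, chosen after seeing the data, gave 15 falls, and the share called was 3.63% of 743. The share over all tiles was 5.78% without the deeper chromosomes, 6.33% without chromosome 7, 1.28% at 40 points and 6.39% in the others. The 651 called CpGs became 389 with 10 reads on each strand, 286 without the deeper chromosomes and 411 without chromosome 7. The median difference of -0.42 became -0.26 when each CpG was scaled to its smaller coverage, -0.24 as an unweighted mean of CpGs, -0.12 without the deeper chromosomes, -0.18 with over 30 listed CpGs and -0.16 without chromosome 7. The 43.7% of tiles low in both libraries became 50.5%, 32.0% with over 30 listed CpGs, 32.0% with 4 or more dense tiles, and 52.6% without chromosome 7. The cause of these shifts was not tested, and several of these settings also leave a smaller number of tiles.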

Other observations

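In some clusters the listed CpGs recurred at a fixed distance, a pattern looked for after the data were seen. Over each run of neighbouring bins, every distance from 100 to 20000 bases was tried, and the share of a run's listed CpGs with another one at the most frequent distance had a median of 15.01% over the 262 runs. It reached 30% or more in 13 runs. At chr5:45150001-45160000 the distance was 759 bases (78.8% of CpGs), at chr12:32350001-32360000 it was 768 (75.7%), and at chr1:157610001-157620000 it was 3231 (65.02%). At chr13:30001-40000 it was 4400 (60.3%), at chr7:52700001-52730000 it was 4665 (36.1%), at chr1:110480001-110500000 it was 5515 (34.8%) and at chr13:26870001-26890000 it was 5363 (33.1%).

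These 13 runs held 79 member tiles with a level, and 0 of the 79 were at or below 20% in skin, whereas 462 of the other 936 were. This holds for cuts of 30% and higher, but not at lower cuts that take in all the runs named next. The cut of 30% was set with the data known. Next below it were chr3:36390001-36400000 (28.6% of CpGs, mean of 62.0% in skin) and chr14:93240001-93250000 (28.6%, 21.2%). Then came chr11:51060001-51070000 (26.5%, 0.341%) and chr22:20040001-20050000 (26.3%, 2.25%). The 79 tiles had medians of 74.2% in skin and 69.5% in sarcoid, compared with 21.1% and 19.9% in the other members. By the Fisher test 1 of the 79 was called lower and 0 higher (1.27%), compared with 26 and 13 (4.17%), and 59 (74.7%) differed by less than 5 points. The called tile, chr10:24627001-24628000, went from 73.4% to 40.1%. The spread of levels within a run varied. The 14 tiles at chr7:52700001-52730000 lay between 50.9% and 69.0% in skin and between 49.9% and 70.3% in sarcoid, the 10 at chr1:110480001-110500000 between 83.5% and 94.6% in skin, and the 10 at chr1:66990001-67010000 between 57.7% and 85.9% in skin. At the chromosome 12 bin all 27 positions of the 768-base period were covered by 2 or more copies. Copies of a position differed by a median of 5.95 points in skin. Whether the 75 bp reads were unique to 1 copy was not tested, so the levels of copies may not be independent. The positions with the lowest means, 51.2% and 69.9%, were those whose copies differed most, by 28.9 and 31.3 points, and the others averaged between 75.6% and 98.0%.

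Over all member tiles, regularly spaced or not, coverage was uneven. CpGs over the coverage limit made up 1.2% of listed CpGs in member tiles (389 CpGs in 11 bins), compared with 0.217% in other dense tiles and 0.105% in all tiles. Of the 389, 136 lay in the single bin chr1:69170001-69180000, which is not among the 13 runs, and 130 at chr13:26870001-26890000. Median coverage of listed CpGs in the chromosome 13 run was 278 reads in skin and 117 in sarcoid. How reads that match several places were treated is not given in the sources used here.

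In the authors' deposited table, which covers chromosome 1 and gives skin minus sarcoid by its values (its sign was reversed here), 6 of 1999 member CpGs were lower and 2 higher in sarcoid by the same thresholds (0.4%), compared with 67 and 73 of 18600 CpGs in other dense tiles (0.753%) and 1.44% of all 74187.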
